A study of Mus musculus with 9 samples.

Results

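Lungs of TGFα mice that received pirfenidone were compared with lungs of control mice, to ask which lung transcripts stay away from control levels under the drug. The TGFα mice had been on Dox (doxycycline) for 6 weeks and were given pirfenidone, an orally active antifibrotic drug, over the last 3 of them. The control mice, whose genotype is labelled Control and not TGFalpha, were given vehicle, and TGFα mice on Dox for 6 weeks that were given vehicle stand beside both groups. The sample descriptions mark control libraries as ST and Normal and TGFα libraries as BT, and spell out neither abbreviation. Each group held 3 libraries of total lung RNA, numbered in the labels, so the comparison rests on 6 of 9 libraries. The labels do not say whether each library came from 1 mouse. Below, "with pirfenidone" and "with vehicle" stand for the groups of TGFα lungs, and the 3 values of a group are its libraries 1, 2 and 3. Values are deposited RPKM (reads scaled by gene length and by the reads of the library). All genes above 1 RPKM in at least 3 of the 9 libraries were taken, 13849 of 16165. The labels name no Dox for the control mice and no control mouse received pirfenidone, so the transgene, Dox and the drug cannot be told apart in this comparison. The labels give neither the promoter that drives the transgene, nor the dose of pirfenidone, nor the age or sex of the mice, nor the time of day at which lungs were taken.

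Transforming growth factor alpha is a ligand of the epidermal growth factor receptor (EGFR), which signals through RAS and the kinase ERK. Its overexpression in mouse lung epithelium is used as a model of progressive fibrosis, with thickening beneath the pleura and around airways and vessels. Fibrosis is the laying down of collagen and other matrix by activated mesenchymal cells, with loss of alveolar epithelium and capillaries. Pirfenidone is used in people with pulmonary fibrosis, and its molecular target is not settled.

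Libraries of pirfenidone-treated mice held 11428709 to 14125367 reads, those of TGFα mice on vehicle 16327952 to 18874158, and those of control mice 15474002 to 16923531. A floor of 3 reads equalled 0.159 to 0.262 in the same unit before division by gene length, and covers counting error only. On the first principal component (44.1% of the variance) all TGFα libraries stood apart from all control libraries. On the second (25.4%), pirfenidone libraries 1 and 2 lay at 28.31 and 33.57, and pirfenidone library 3 at -16.39, nearer to vehicle libraries 2 and 3 at -26.88 and -27.05. Transcripts of tissue other than lung parenchyma also differed between libraries, though skeletal muscle did not split them as the second component did. The summed level of 16 skeletal muscle markers was 418.4, 2463.0 and 22.9 RPKM in pirfenidone-treated lungs, 1552.0, 582.8 and 9.5 RPKM in TGFα lungs on vehicle and 15.9, 24.8 and 20.2 RPKM in control lungs. Of these 16 markers, 15, 16 and 5 exceeded every control library in pirfenidone libraries 1, 2 and 3, and Pvalb and Myh4 were listed at 0 in some control libraries. The 10 adipocyte markers summed to 765.3, 700.9 and 198.0 RPKM in pirfenidone-treated lungs, 354.3, 142.1 and 147.3 RPKM with vehicle and 91.2, 105.9 and 160.9 RPKM in control lungs, and none was listed at 0. Control library 3 held 10038.5 RPKM of alveolar macrophage markers and 1307.4 RPKM of neutrophil markers, against 1357.4 and 1477.8 RPKM and 351.2 and 448.1 RPKM in control libraries 1 and 2. Krt5, Krt14 and Krt15, keratins of basal epithelium that did not pass the filter, stood at 21.1, 7.38 and 13.6 RPKM in pirfenidone library 2. Their highest values in any other library were 1.002, 0.67 and 2.18 RPKM. The part of these differences in the results below was not tested, and results that rest on single libraries are given with and without them. Surfactant protein C (Sftpc), a defining lung transcript, stood at 13368, 13631 and 20416 RPKM with pirfenidone, against 19726, 21973 and 20867 RPKM with vehicle and 13220.00000, 13052 and 12880.5 RPKM in control. Tgfa, as counted at the mouse gene, stood at 5.67, 5.6 and 5.67 RPKM with pirfenidone, against 7.8, 6.37 and 6.38 RPKM with vehicle and 7.47, 7.09 and 5.95 RPKM in control (adjusted p = 0.162, log2 fold change -0.23 ± 0.11 SE). Since the labels do not say from which species the transgene came, these values do not check it.

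**Figure D1:**
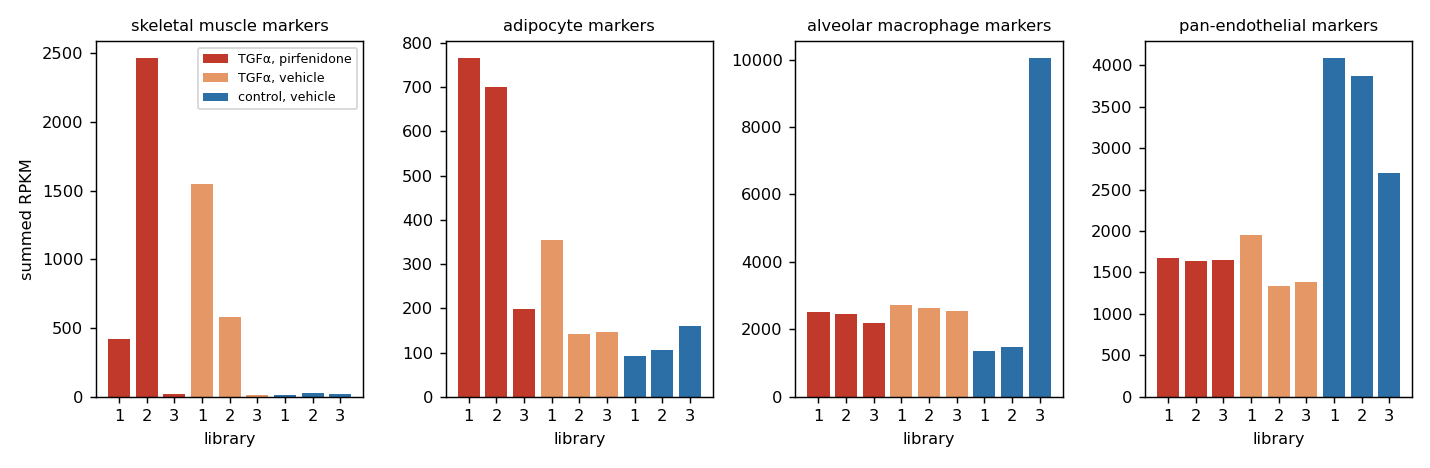
Summed RPKM of the markers of skeletal muscle, adipocytes, alveolar macrophages and endothelium in each of the 9 libraries, with TGFα pirfenidone first, TGFα vehicle next and control last. Each bar is a library. Skeletal muscle transcripts are high in libraries 1 and 2 of both TGFα groups, adipocyte transcripts are highest in pirfenidone libraries 1 and 2, macrophage transcripts are high in control library 3, and the endothelial sum is 1638.9 to 1671.2 RPKM in the 3 pirfenidone libraries.

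Of the 13849 genes, 2545 (18.4%) passed an adjusted p of 0.05 by limma, 1473 (10.6%) higher and 1072 (7.74%) lower in pirfenidone-treated TGFα lungs than in control lungs. By ratio of mean RPKM, 528 of the higher and 353 of the lower genes differed at least 2-fold. In the same fit, 3222 genes (23.3%) differed between TGFα lungs on vehicle and control lungs, 1665 higher and 1557 lower. Between pirfenidone and vehicle in TGFα lungs 97 (0.700%) differed, 21 higher and 76 lower. The 3 comparisons share libraries, so their counts are given side by side and no overlap between them is drawn. The count of 2545 was 1287 without pirfenidone library 1, 1121 without pirfenidone library 2, 1161 without control library 1 and 1145 without control library 2. With pirfenidone library 3 as the only library of its group, which is then assumed to vary like the others, 156 genes passed, 125 higher and 31 lower. The split between higher and lower genes depended on scaling. It was 1473 to 1072 as deposited, 1160 to 1348 after scaling by median of ratios and 1156 to 1401 after quantile normalization. Over all genes tested, the log2 fold change had a median of 0.05.

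**Figure D2:**
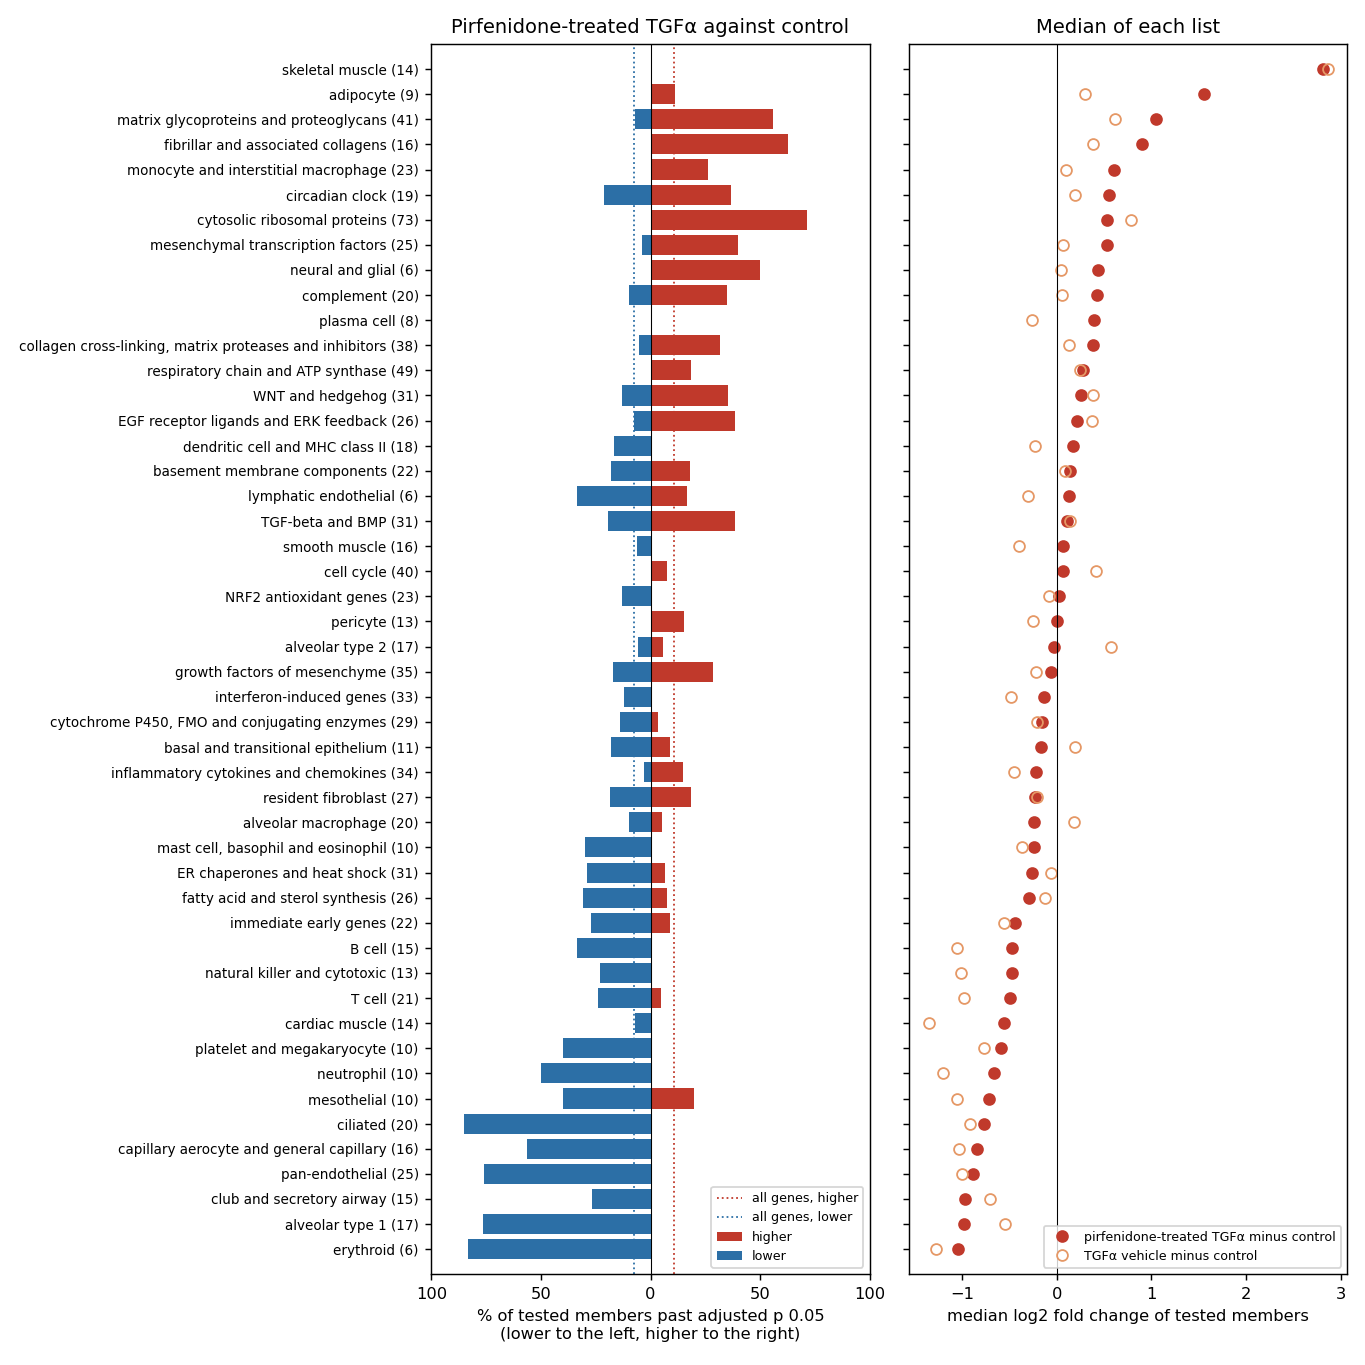
Share of the tested members of each of 48 gene lists that passed the threshold higher or lower in pirfenidone-treated TGFα lungs than in control lungs, in percent, with the shares of all genes (10.6% and 7.74%) as dotted lines, and the median log2 fold change of each list for pirfenidone-treated (filled) and vehicle-treated (open) TGFα lungs against control lungs. Matrix and ribosomal lists lie on the higher side, and endothelial, ciliated and alveolar type 1 lists on the lower side.

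The genes were described through 48 lists with 1151 entries, in which some genes stand more than once. Counts of a list are to be read beside the shares of all genes, 10.6% higher and 7.74% lower. Genes at or below the filter have no test. A gene that passed it only through its TGFα libraries, or only through its control libraries, had to differ in that direction. Changes in bulk lung RNA cannot tell fewer cells of a type from less RNA per cell.

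Matrix genes such as Lum, Tnc, Col15a1, Ccdc80, Timp1 and Thbs2 were among the largest increases. Of 16 tested fibrillar and associated collagens, 10 were higher and 0 lower in pirfenidone-treated lungs than in control lungs, with a median log2 fold change of 0.90, against 0.38 for the same genes in TGFα lungs on vehicle and 0.05 for all genes in the pirfenidone comparison. Col1a1 (a chain of type I collagen, the main collagen of scar, chr11:94936224-94953042 on GRCm38) had 433, 382 and 268 RPKM with pirfenidone, against 143, 185 and 232 RPKM with vehicle and 83.1, 92.9 and 88.4 RPKM in control. Every pirfenidone library exceeded every vehicle library, and every vehicle library exceeded every control library. The mean was 4.1-fold that of control (adjusted p = 0.00114, log2 fold change 2.00 ± 0.21 SE). Between pirfenidone and vehicle the log2 fold change of Col1a1 was 0.95, with a 95% interval of 0.47 to 1.42, and did not pass (adjusted p = 0.0767). Col3a1 (type III collagen) averaged 966 ± 279.8 RPKM with pirfenidone, 478 ± 94.4 with vehicle and 245 ± 23.4 in control (adjusted p = 0.00182, log2 fold change 1.94 ± 0.23 SE). The count of 10 was between 7 and 12 when any library was left out. It was 5 with pirfenidone library 3 alone. The 19 collagens summed to 2944.1, 2628.6 and 1759.2 RPKM in pirfenidone-treated lungs, 1100.5, 1288.2 and 1576.7 RPKM with vehicle and 740.5, 812.1 and 727.8 RPKM in control lungs. Pirfenidone library 3, the lowest of its group in collagen, was also the one low in adipocyte and skeletal muscle transcripts. With vehicle the order was the other way, as library 1, the lowest in collagen, was the highest in both.

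Glycoproteins and proteoglycans, which organise collagen fibrils and carry signals to cells, had a larger median change. Of 41 tested, 23 were higher and 3 lower, with a median log2 fold change of 1.05, against 0.61 in TGFα lungs on vehicle. Lum (lumican, a small leucine-rich proteoglycan on collagen fibrils, chr10:97565501-97572703) had 298, 265 and 105 RPKM with pirfenidone, against 86.4, 67.8 and 96.01 RPKM with vehicle and 5.1, 7.19 and 7.72 RPKM in control. Pirfenidone libraries 1 and 2 stood above all vehicle libraries and library 3 stood just above them, and all TGFα libraries stood above control (33.4-fold, adjusted p = 0.000466, log2 fold change 4.75 ± 0.36 SE). Tnc (tenascin C, a matrix protein of wounds) had 88.4, 106 and 64.6 RPKM with pirfenidone, against 26.8, 54.5 and 62.97 RPKM with vehicle and 3.08, 3.93 and 5.41 RPKM in control (20.8-fold against control, adjusted p = 0.000477, log2 fold change 4.08 ± 0.32 SE). All 3 pirfenidone libraries of Tnc were above all vehicle libraries. Fn1 (fibronectin, on which collagen assembles, chr1:71585473-71653280) had 582, 478 and 302 RPKM with pirfenidone, against 227, 263 and 333 RPKM with vehicle and 64.7, 63.1 and 76.3 RPKM in control. Here pirfenidone library 3 fell among the vehicle libraries, and all TGFα libraries were far above control (6.67-fold, adjusted p = 0.000647, log2 fold change 2.67 ± 0.24 SE). Thbs2 (thrombospondin 2, a matricellular protein) averaged 16.9 ± 7.74 RPKM with pirfenidone, 10.7 ± 2.24 with vehicle and 0.419 ± 0.104 in control. Thbs2 passed the filter through TGFα libraries only, which favoured a higher call. Vcan (versican, a large hyaluronan-binding proteoglycan) averaged 27.9 ± 5.65 RPKM with pirfenidone, 21.1 ± 6.23 with vehicle and 1.53 ± 0.373 in control. Ccdc80, a secreted matrix-binding protein, averaged 236 ± 101 RPKM with pirfenidone, 112 ± 12.3 with vehicle and 16.9 ± 2.12 in control. Spp1 (osteopontin, a phosphoprotein secreted by macrophages and other cells) averaged 959.9 ± 90.9 RPKM with pirfenidone, 754 ± 347 with vehicle and 129 ± 10.6 in control, and in control library 3, where macrophage markers were highest, it was the lowest of the group at 119.5 RPKM. The 3 glycoproteins on the lower side were Efemp1, Has1 and Vtn, a fibulin-family protein, a hyaluronan synthase and vitronectin, and each lost its call when pirfenidone library 1, control library 1 or control library 2 was left out. That count of 3 was 6 without control library 3. The count of 23 was 18 to 25 without any library in turn and 7 with pirfenidone library 3 alone.

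Basement membrane genes, whose sheets underlie epithelium, endothelium and muscle, went both ways. Of 22 tested, Col15a1, Lama2, Lamb1 and Nid1 were higher, and Col4a3, Col4a4, Lama3 and Agrn were lower. Col15a1 (type XV collagen, which links basement membrane to the fibrils beneath) had 168, 122 and 56.7 RPKM with pirfenidone, against 56.6, 53.7 and 71.7 RPKM with vehicle and 4.85, 5.89 and 6.6 RPKM in control (19.98-fold against control, adjusted p = 0.000565, log2 fold change 3.98 ± 0.34 SE). Pirfenidone libraries 1 and 2 were above every vehicle library and library 3 was within their range. Col4a3, a chain of the type IV collagen network of the alveolar wall, had 8.92, 9.02 and 16.2 RPKM with pirfenidone, against 18.7, 18.4 and 20.3 RPKM with vehicle and 30.1, 27.2 and 19.7 RPKM in control. It was lowest in pirfenidone libraries 1 and 2 (adjusted p = 0.0119, log2 fold change -1.14 ± 0.22 SE), and TGFα lungs on vehicle did not pass against control (adjusted p = 0.239). Lama3, the laminin alpha chain of epithelial basement membranes, averaged 6.67 ± 2.64 RPKM with pirfenidone, 9.74 ± 1.76 with vehicle and 16.01 ± 2.5 in control (adjusted p = 0.011, log2 fold change -1.19 ± 0.23 SE), and Lama2, the laminin chain of mesenchyme and muscle, averaged 17.1 ± 1.74 RPKM with pirfenidone, 19.03 ± 2.23 with vehicle and 8.66 ± 1.73 in control (adjusted p = 0.00575, log2 fold change 0.92 ± 0.15 SE). The lower count of 4 was 2 without pirfenidone library 1 or 2 or control library 1 or 2. Lamb1 and Col4a4 lost their calls without pirfenidone library 1 or 2 or control library 1 or 2, and Agrn without any of these or any vehicle library.

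Among 38 enzymes that hydroxylate, cross-link or cut matrix and their inhibitors, 12 were higher and 2 lower, with a median of 0.38, against 0.13 with vehicle. The 12 included the lysyl oxidases Loxl1, Loxl2 and Loxl3, the hydroxylases Plod1 and P4ha3, the proteases Mmp2, Mmp14, Mmp23, Adamts2 and Adamts12, and the inhibitor Timp1. Timp1 (an inhibitor of matrix metalloproteinases, chrX:20870166-20874737) had 144, 148 and 78.4 RPKM with pirfenidone, against 31.7, 64.6 and 83.5 RPKM with vehicle and 5.08, 7.1 and 19.5 RPKM in control. Timp1 lies within an intron of Syn1 on the other strand, and whether reads were counted by strand is not known. Vehicle library 1 was the lowest of the TGFα libraries, and control library 3 the highest of the control libraries (11.7-fold, adjusted p = 0.00322, log2 fold change 3.58 ± 0.50 SE). Loxl2, which cross-links collagen, averaged 41.9 ± 13.8 RPKM with pirfenidone, 21.9 ± 1.32 with vehicle and 11.3 ± 1.73 in control (adjusted p = 0.00273, log2 fold change 1.76 ± 0.23 SE). Mmp14, a membrane protease that activates Mmp2, averaged 107 ± 22.4 RPKM with pirfenidone, 71.3 ± 11.5 with vehicle and 35.2 ± 4.99 in control (adjusted p = 0.0015, log2 fold change 1.57 ± 0.18 SE). Mmp9, a gelatinase that neutrophils carry, was lower, at 4.33 ± 0.84 RPKM with pirfenidone, 2.37 ± 0.282 with vehicle and 7.94 ± 1.81 in control (adjusted p = 0.019, log2 fold change -0.74 ± 0.17 SE), and lost its call without pirfenidone library 1. The other lower gene, Loxl4, which also cross-links matrix, lost its call without pirfenidone library 2 or 3, vehicle library 2 or 3 or any control library. Loxl4 exceeded 1 RPKM in control libraries only and passed the filter through them, which favoured a lower call. Adamts12 and P4ha3 passed the filter through TGFα libraries only, which favoured higher calls. Of the higher members, Adamts2 and Mmp23 lost their calls without pirfenidone library 1 or 2 or control library 1 or 2, and Plod1 without any of these, vehicle library 2 or 3 or control library 3.

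**Figure D3:**
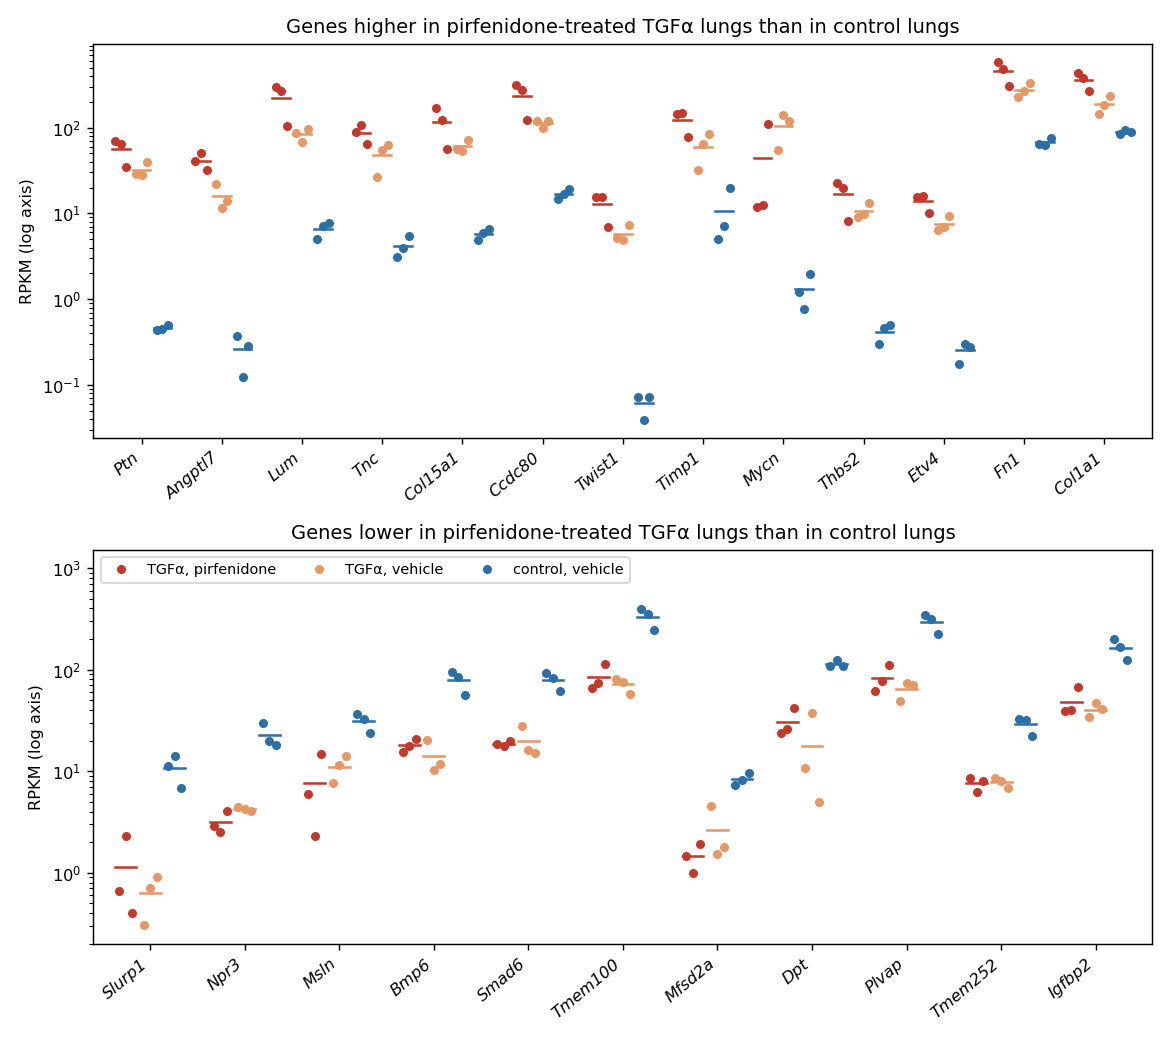
RPKM (log axis) of genes from among the largest differences, higher (upper panel) and lower (lower panel) in pirfenidone-treated TGFα lungs than in control lungs, for TGFα pirfenidone, TGFα vehicle and control in that order. The upper panel also holds Fn1 and Col1a1, which were named whatever their values, and some genes with larger changes than these are not drawn. Points are libraries and bars are means of 3. For most genes of the upper panel the third pirfenidone point is the lowest of its group, and for Mycn it is the highest. In the lower panel both TGFα groups lie below control.

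Among the named genes the largest log2 increase was in a growth factor. Ptn (pleiotrophin, a heparin-binding factor of developing tissue, chr6:36714924-36810179) had 69.6, 64.8 and 35.1 RPKM with pirfenidone, against 28.7, 27.8 and 39.5 RPKM with vehicle and 0.441, 0.448 and 0.497 RPKM in control. Control libraries held almost none, and pirfenidone library 3 lay among the vehicle libraries (122-fold, adjusted p = 5.82e-05, log2 fold change 5.24 ± 0.24 SE). Mdk (midkine, its only close relative) averaged 34.6 ± 7.43 RPKM with pirfenidone, 16 ± 3.73 with vehicle and 5.18 ± 1.91 in control (6.68-fold, adjusted p = 0.000886, log2 fold change 2.55 ± 0.25 SE). Angptl7 (an angiopoietin-like secreted protein, chr4:148495181-148500462) had 40.7, 50.7 and 32.4 RPKM with pirfenidone, against 22.2, 11.4 and 13.8 RPKM with vehicle and 0.375, 0.125 and 0.287 RPKM in control. All 3 groups were apart, with pirfenidone-treated lungs highest (157-fold against control, adjusted p = 5.82e-05, log2 fold change 5.05 ± 0.24 SE). Pirfenidone against vehicle passed as well (log2 fold change 1.36, 95% interval 0.82 to 1.90, adjusted p = 0.0477). Ptn and Angptl7 passed the filter through TGFα libraries only, which favoured higher calls against control. Of 35 growth factors of mesenchyme, their binding proteins and receptors, 10 were higher, the others being Igf1, Igfbp4, Igfbp7, Pdgfc, Fgf2, Fgfr1 and Angptl2, and 6 were lower, namely Igfbp2, Igfbp3, Igfbp5, Pdgfa, Fgfr3 and Vegfa. The count of 6 was 3 without pirfenidone library 1, vehicle library 3 or control library 1, 2 without pirfenidone library 2 or control library 2, and 10 without control library 3. Igfbp2, an IGF-binding protein made by alveolar type 1 cells, had 38.8, 39.6 and 66.6 RPKM with pirfenidone, against 33.8, 46.7 and 40.7 RPKM with vehicle and 202, 168 and 125 RPKM in control, with all control libraries above all TGFα libraries (adjusted p = 0.00296, log2 fold change -1.77 ± 0.24 SE). Of the higher members, Igfbp7 lost its call without pirfenidone library 1 or 2 or control library 1 or 2, Angptl2 without pirfenidone library 1 or 2, and Igf1 without any pirfenidone library or control library 1 or 3.

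Several targets and brakes of EGFR and ERK signalling stood above control. Of 26 tested, 10 were higher (Ereg, Dusp4, Dusp6, Spry4, Spred1, Spred3, Etv1, Etv4, Etv5 and Lrig1) and 2 were lower (Ccnd1 and Epha2), with a median of 0.21, against 0.37 with vehicle. Etv4 (an ETS transcription factor induced by ERK, chr11:101769747-101785310) had 15.6, 15.9 and 10.001 RPKM with pirfenidone, against 6.43, 7.0 and 9.39 RPKM with vehicle and 0.178, 0.304 and 0.278 RPKM in control. Control libraries were near 0, and every pirfenidone library was above every vehicle library (54.5-fold against control, adjusted p = 0.00011, log2 fold change 3.54 ± 0.19 SE). The pirfenidone to vehicle difference did not pass (log2 fold change 0.77, adjusted p = 0.0884). Etv4 passed the filter through TGFα libraries only, as did Ereg, which favoured higher calls against control. Ereg, itself an EGFR ligand, had 2.5, 3.09 and 1.71 RPKM with pirfenidone, against 1.18, 1.73 and 1.75 RPKM with vehicle and 0.0144, 0.203 and 0.0143 RPKM in control, with control library 2 the highest of a low control group (adjusted p = 0.00127, log2 fold change 1.66 ± 0.18 SE). Dusp6, a phosphatase that switches ERK off, had 99.8, 112 and 85.98 RPKM with pirfenidone, against 82.4, 76.4 and 77.7 RPKM with vehicle and 65.1, 67.5 and 67.2 RPKM in control (1.49-fold, adjusted p = 0.00733, log2 fold change 0.56 ± 0.10 SE). Spred1, an inhibitor of RAS signalling, averaged 28.2 ± 1.73 RPKM with pirfenidone, 23.98 ± 2.28 with vehicle and 15.5 ± 0.664 in control (adjusted p = 0.00115, log2 fold change 0.82 ± 0.09 SE). The count of 10 was 9 or 10 without any library in turn, and 2 with pirfenidone library 3 alone. The lower calls of Ccnd1 (cyclin D1) and Epha2 (an ephrin receptor) were both lost without pirfenidone library 1 or 2, or control library 1 or 2. Lrig1 lost its call without pirfenidone library 1 or 2 or control library 1, and Etv5 without control library 2.

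Transcription factors of mesenchyme were higher in 10 of 25 tested, and Foxf1 was the only one lower, with a median of 0.53, against 0.06 with vehicle. Twist1 (a factor of embryonic mesenchyme, chr12:33957671-33959831) had 15.7, 15.6 and 6.99 RPKM with pirfenidone, against 5.14, 4.88 and 7.28 RPKM with vehicle and 0.073, 0.0396 and 0.0725 RPKM in control. Control libraries were under the floor, pirfenidone libraries 1 and 2 were the highest, and pirfenidone library 3 was within the vehicle range (adjusted p = 0.000466, log2 fold change 3.62 ± 0.27 SE). Sox9 (a cartilage and airway tip factor) averaged 3.96 ± 0.484 RPKM with pirfenidone, 2.18 ± 0.722 with vehicle and 0.192 ± 0.0428 in control (adjusted p = 0.000552, log2 fold change 2.05 ± 0.17 SE), and Prrx2 (a homeobox factor of limb and skin mesenchyme) averaged 12.8 ± 6.02 RPKM with pirfenidone, 4.56 ± 0.314 with vehicle and 1.02 ± 0.426 in control (adjusted p = 0.00206, log2 fold change 2.68 ± 0.33 SE). The other higher members were Snai1, Prrx1, Runx1, Runx2, Meox1, Meox2 and Mycn. Twist1 and Sox9 passed the filter through TGFα libraries only, which favoured higher calls. Mycn (a MYC-family factor of growing embryonic tissue, chr12:12936093-12941836) had 12.03, 12.6 and 109 RPKM with pirfenidone, against 54.2, 139.6 and 120.2 RPKM with vehicle and 1.21, 0.772 and 1.96 RPKM in control. It split its own group, with pirfenidone libraries 1 and 2 some way above control and library 3 within the vehicle range (adjusted p = 0.0157, log2 fold change 3.57 ± 0.76 SE). The call of Mycn was lost without control library 1 or control library 2, and against vehicle it did not pass (log2 fold change -1.86, 95% interval -3.60 to -0.13, adjusted p = 0.215). Foxf1, a factor of lung capillaries and mesenchyme, had 40.8, 52.2 and 60.5 RPKM with pirfenidone, against 41.4, 35.6 and 29.4 RPKM with vehicle and 189, 174 and 103 RPKM in control, with all TGFα libraries below all control libraries (adjusted p = 0.0049, log2 fold change -1.55 ± 0.24 SE). Snai1 lost its call without pirfenidone library 1 or 2 or control library 2, and Meox1 without control library 1. Without control library 3, 2 were lower. The count of 10 was 8 to 11 without any library in turn and 4 with pirfenidone library 3 alone. H19, an imprinted RNA of fetal tissue, had 24.9, 84.4 and 4.48 RPKM with pirfenidone, against 34.96, 27.3 and 1.91 RPKM with vehicle and 0.738, 0.588 and 0.782 RPKM in control. The spread of H19 within both TGFα groups was wide. In each of them the order of its libraries followed that of the skeletal muscle sums, and a link between them was not tested. The call of H19 (adjusted p = 0.0472, log2 fold change 3.76 ± 1.11 SE) was lost when pirfenidone library 1 or 2, vehicle library 2, or any control library was left out. H19 also passed the filter through TGFα libraries only, which favoured a higher call.

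Of 31 WNT and hedgehog genes, 11 were higher and 4 lower, with a median of 0.26, against 0.38 with vehicle. On the receptor side, Fzd1 (a frizzled receptor) had 138, 118 and 86.6 RPKM with pirfenidone, against 61.7, 70.4 and 88.7 RPKM with vehicle and 17.3, 19 and 16.2 RPKM in control. Its pirfenidone library 3 was within the vehicle range and the other pirfenidone libraries were above it (6.53-fold, adjusted p = 0.000413, log2 fold change 2.62 ± 0.18 SE). Among ligands, Wnt5a averaged 12.9 ± 0.643 RPKM with pirfenidone, 10.6 ± 1.45 with vehicle and 4.93 ± 0.872 in control (adjusted p = 0.00114, log2 fold change 1.23 ± 0.13 SE), and Wnt4 and Wnt11 were also higher. The hedgehog target Gli1 had 5.71, 5.29 and 8.24 RPKM with pirfenidone, against 3.05, 3.13 and 5.03 RPKM with vehicle and 1.56, 1.92 and 1.95 RPKM in control, highest in pirfenidone library 3 (3.54-fold, adjusted p = 0.00327, log2 fold change 1.38 ± 0.19 SE), and Gli2, Gli3 and Smo were higher too. The lower members were Wnt2b, Wnt3a, Wnt7a and the secreted inhibitor Wif1. Their count of 4 was 1 without pirfenidone library 1 or 2 or control library 1 or 2, and 2 without vehicle library 2 or 3. Gli2 lost its call without pirfenidone library 1 or 2 or control library 1 or 2.

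TGF-beta and BMP signalling, which share receptors and SMAD proteins, went both ways. Of 31 genes, 12 were higher, including the ligands Tgfb2, Tgfb3 and Bmp2, the receptors Tgfbr1, Tgfbr2 and Bmpr1a, the signal carriers Smad1 and Smad3, and the BMP antagonist Grem1. Tgfb3 had 53.4, 54.01 and 40.4 RPKM with pirfenidone, against 30.2, 33.8 and 36.7 RPKM with vehicle and 14.99, 15.7 and 12.8 RPKM in control, with all 3 groups apart (3.4-fold against control, adjusted p = 0.000477, log2 fold change 1.69 ± 0.13 SE). Pmepa1, a TGF-beta target that dampens SMAD signalling, averaged 56.9 ± 12 RPKM with pirfenidone, 41.7 ± 6.92 with vehicle and 17.5 ± 2.25 in control (adjusted p = 0.00135, log2 fold change 1.63 ± 0.18 SE). The 6 lower members were the BMP receptors Acvrl1 and Bmpr2, the co-receptor Eng, the ligand Bmp6, the inhibitory Smad6 and the target Id1. Bmp6 (chr13:38345716-38500314) had 15.5, 17.5 and 20.7 RPKM with pirfenidone, against 20.3, 10.2 and 11.7 RPKM with vehicle and 94.2, 84.95 and 56.7 RPKM in control. Smad6 (chr9:63953076-64022085) had 18.7, 17.8 and 19.6 RPKM with pirfenidone, against 27.7, 16.1 and 15 RPKM with vehicle and 91.5, 82.6 and 61.9 RPKM in control. In both, the TGFα libraries lay far below all control libraries and the pirfenidone libraries within or close to the vehicle range (Bmp6 adjusted p = 0.00234, log2 fold change -2.05 ± 0.26 SE, and Smad6 adjusted p = 0.00135, log2 fold change -2.00 ± 0.22 SE). Id1 averaged 63.5 ± 19.97 RPKM with pirfenidone, 57.8 ± 2.86 with vehicle and 108 ± 11.4 in control (adjusted p = 0.0217, log2 fold change -0.80 ± 0.19 SE), while Id3, another inhibitor of DNA binding in the same family, was higher, at 149.7 ± 10.9 RPKM with pirfenidone, 124 ± 5.54 with vehicle and 118 ± 12.8 in control (adjusted p = 0.0414, log2 fold change 0.34 ± 0.10 SE). Id1 lost its call without pirfenidone library 1 or 2 or control library 1, Bmpr2 without any of these or control library 2, and Acvrl1 without pirfenidone library 2, control library 1 or control library 2. Id3 lost its call without any 1 of the 3 pirfenidone libraries, vehicle library 2 or 3, or control library 2 or 3. The lower count of 6 was 3 without pirfenidone library 2 or control library 1. Among the higher members, Bmpr1a lost its call without any library but vehicle library 1, Tgfbr2 without pirfenidone library 1 or 2 or control library 2, and Smad1 without pirfenidone library 2 or control library 2. The count of 12 was 8 to 14 without any library in turn and 1 with pirfenidone library 3 alone.

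Endothelial transcripts were lower across most of their list. Of 25 pan-endothelial genes, 0 were higher and 19 lower, with a median log2 fold change of -0.89, against -1.0 with vehicle. The list summed to 1671.2, 1638.9 and 1653.2 RPKM in pirfenidone-treated lungs, 1953.9, 1335.4 and 1387.0 RPKM in TGFα lungs on vehicle and 4082.9, 3866.1 and 2695.0 RPKM in control lungs. The pirfenidone libraries were nearly equal here, including library 3, and control library 3 was the lowest control. Eng (endoglin) had 44.95, 45.5 and 47.8 RPKM with pirfenidone, against 44.9, 36.02 and 36.4 RPKM with vehicle and 184, 163 and 107 RPKM in control, and Cldn5 (the claudin of endothelial tight junctions) averaged 143 ± 15.2 RPKM with pirfenidone, 127 ± 27.3 with vehicle and 408 ± 61.4 in control (adjusted p = 0.0015, log2 fold change -1.50 ± 0.17 SE). Plvap, which forms the diaphragms of capillary pores, had 60.9, 76.9 and 111 RPKM with pirfenidone, against 48.9, 74.2 and 71.1 RPKM with vehicle and 349, 315 and 226 RPKM in control. Every TGFα library of Eng and Plvap was below every control library (Eng adjusted p = 0.00136, log2 fold change -1.66 ± 0.18 SE, and Plvap adjusted p = 0.00304, log2 fold change -1.85 ± 0.25 SE). The count of 19 was 12 without control library 2, 13 to 23 without any other library, and 0 with pirfenidone library 3 alone. Of 16 genes of lung capillaries, 9 were lower and 0 higher. Tmem100, a BMP-dependent membrane protein of lung endothelium, averaged 84.6 ± 25.5 RPKM with pirfenidone, 71.7 ± 12.3 with vehicle and 329 ± 76.4 in control (adjusted p = 0.00206, log2 fold change -1.96 ± 0.24 SE), and Hpgd, which breaks down prostaglandin E2, averaged 60.8 ± 10.6 RPKM with pirfenidone, 45.5 ± 17.1 with vehicle and 204 ± 63.7 in control (adjusted p = 0.00816, log2 fold change -1.69 ± 0.30 SE). Npr3 (the clearance receptor for natriuretic peptides, chr15:11839896-11907837) had 2.9, 2.5 and 4.07 RPKM with pirfenidone, against 4.4, 4.2 and 4.03 RPKM with vehicle and 29.8, 19.9 and 18.1 RPKM in control. No TGFα library came near the control range (mean 7.16-fold higher in control, adjusted p = 0.000469, log2 fold change -2.49 ± 0.19 SE). Of 6 lymphatic endothelial genes, Lyve1 and Pdpn were lower and Thy1 was higher, with a median of 0.13, against -0.30 with vehicle, and Thy1 lost its call without pirfenidone library 1 or 2 or control library 1 or 2. Lyve1, a hyaluronan receptor, averaged 33.2 ± 5.14 RPKM with pirfenidone, 25.1 ± 4.02 with vehicle and 107 ± 16.2 in control (adjusted p = 0.000919, log2 fold change -1.66 ± 0.16 SE). Vegfa, the main endothelial growth factor and in lung largely epithelial, had 53.4, 51.7 and 83.6 RPKM with pirfenidone, against 68.6, 71.8 and 71.7 RPKM with vehicle and 183, 161 and 123 RPKM in control. Pirfenidone library 3 was the highest of the TGFα libraries, and control libraries were all above them (adjusted p = 0.00426, log2 fold change -1.31 ± 0.20 SE).

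In the alveolar epithelium, genes of the flat gas-exchanging type 1 cell were lower and those of the surfactant-making type 2 cell mostly were not. Of 17 type 1 genes, 13 were lower and 0 higher, with a median of -0.98, against -0.55 with vehicle. Ager (a receptor abundant on type 1 cells) had 243, 223 and 408 RPKM with pirfenidone, against 357, 408 and 386 RPKM with vehicle and 617, 581 and 473 RPKM in control. Pirfenidone libraries 1 and 2 were the lowest of all 9, and library 3 was as high as vehicle (adjusted p = 0.018, log2 fold change -0.98 ± 0.22 SE). Ager lost its call without pirfenidone library 1 or 2 or control library 1 or 2, and the count of 13 was 7 without any of these 4. Hopx averaged 149 ± 30.3 RPKM with pirfenidone, 165 ± 17.1 with vehicle and 319.8 ± 81.1 in control (adjusted p = 0.0115, log2 fold change -1.08 ± 0.21 SE) and Pdpn (podoplanin, shared with lymphatic endothelium) averaged 48.8 ± 1.55 RPKM with pirfenidone, 37.8 ± 2.57 with vehicle and 67.4 ± 1.33 in control (adjusted p = 0.00447, log2 fold change -0.46 ± 0.07 SE). With pirfenidone library 3 alone the count was 0. Of 17 type 2 genes, 1 was higher and 1 lower, with a median of -0.03, against 0.57 with vehicle. Without control library 2 none was higher and without control library 3 there were 2, while 2 were lower without pirfenidone library 3 or vehicle library 1. The higher gene was Etv5, which the EGFR list also holds, and its call was lost without control library 2. The lower gene was Cxcl15 (lungkine, a lung epithelial chemokine), which had 279, 381 and 448 RPKM with pirfenidone, against 626, 554 and 605 RPKM with vehicle and 855, 836 and 885 RPKM in control. All 3 groups were apart, lowest under pirfenidone (adjusted p = 0.0027, log2 fold change -1.24 ± 0.16 SE), and pirfenidone against vehicle did not pass (adjusted p = 0.0823). Mfsd2a, a lysolipid transporter of type 2 cells and endothelium, averaged 1.45 ± 0.462 RPKM with pirfenidone, 2.62 ± 1.67 with vehicle and 8.34 ± 1.06 in control (adjusted p = 0.00386, log2 fold change -1.94 ± 0.28 SE).

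Most ciliated cell genes were called lower, and secretory airway genes leaned lower with few calls. Of 20 ciliated cell genes, 17 were lower and 0 higher, with a median of -0.77, against -0.92 with vehicle. Foxj1, the master factor of motile cilia, had 12.3, 11.9 and 11.97 RPKM with pirfenidone, against 18.9, 9.53 and 9.002 RPKM with vehicle and 26.1, 31.4 and 28.9 RPKM in control. Pirfenidone libraries were nearly equal, and of the vehicle libraries only library 1 came near control (adjusted p = 0.0112, log2 fold change -1.19 ± 0.23 SE). Tppp3, a tubulin-binding protein of cilia, averaged 93.8 ± 5.42 RPKM with pirfenidone, 95.8 ± 21.3 with vehicle and 265 ± 45.7 in control (adjusted p = 0.0015, log2 fold change -1.47 ± 0.17 SE). The count of 17 was 8, 6 and 9 without pirfenidone libraries 1, 2 and 3, and 4 and 5 without control libraries 1 and 2. Of 15 secretory airway genes, Scgb3a2, Cyp2f2, Muc5b and Gabrp passed as lower and 0 as higher. Their list had a median of -0.97, against -0.71 with vehicle, and 14 log2 fold changes were negative. Cyp2f2 lost its call without any pirfenidone library, vehicle library 2 or 3 or control library 1 or 2. Muc5b (a gel-forming mucin) had 0.602, 0.521 and 2.41 RPKM with pirfenidone, against 1.9, 1.22 and 1.22 RPKM with vehicle and 4.34, 6.53 and 5.92 RPKM in control. Pirfenidone libraries 1 and 2 were lowest and library 3 was above vehicle, all below control (adjusted p = 0.00816, log2 fold change -1.69 ± 0.30 SE). Scgb3a2, a secretoglobin of airway cells, averaged 319 ± 23.1 RPKM with pirfenidone, 405 ± 179.9 with vehicle and 825 ± 134 in control (adjusted p = 0.011, log2 fold change -1.36 ± 0.26 SE). The count of 4 was 7 without control library 3. Among the named genes the largest log2 decrease was in Slurp1 (a secreted Ly6-family protein of epithelia, chr15:74726644-74728023), which had 0.667, 2.31 and 0.405 RPKM with pirfenidone, against 0.307, 0.7 and 0.908 RPKM with vehicle and 11.3, 14.2 and 6.87 RPKM in control. All control libraries were above all TGFα libraries (mean 9.58-fold higher in control, adjusted p = 0.00304, log2 fold change -2.52 ± 0.35 SE).

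Mesothelial genes, which mark the pleura, diverged. Of 10 tested, Wt1 and Aldh1a2 were higher, and Msln, Upk3b, Gpm6a and Krt19 were lower. Wt1 (Wilms tumour factor 1, chr2:105126529-105173614) had 18.03, 19.6 and 8.4 RPKM with pirfenidone, against 8.49, 5.76 and 7.45 RPKM with vehicle and 3.94, 1.94 and 2.01 RPKM in control. Pirfenidone libraries 1 and 2 were above every vehicle library, library 3 was within the vehicle range, and all TGFα libraries were above control (5.83-fold, adjusted p = 0.00412, log2 fold change 2.13 ± 0.32 SE). Aldh1a2, which makes retinoic acid, averaged 65.1 ± 11.7 RPKM with pirfenidone, 34.96 ± 12.7 with vehicle and 17.2 ± 5.23 in control (adjusted p = 0.00555, log2 fold change 1.89 ± 0.30 SE). Msln (mesothelin, a surface protein of mesothelium, chr17:25748613-25754378) had 5.999, 2.32 and 14.6 RPKM with pirfenidone, against 7.66, 11.6 and 14.03 RPKM with vehicle and 36.4, 32.8 and 23.5 RPKM in control, with pirfenidone library 2 lowest (adjusted p = 0.019, log2 fold change -2.14 ± 0.49 SE), and lost its call without pirfenidone library 1, control library 1 or control library 2. Upk3b, a uroplakin of mesothelium, averaged 11.03 ± 1.81 RPKM with pirfenidone, 10.1 ± 0.947 with vehicle and 28.01 ± 8.34 in control (adjusted p = 0.00721, log2 fold change -1.24 ± 0.21 SE). The lower count of 4 was 2 without pirfenidone library 1 or control library 1 and 1 without control library 2. Krt19 lost its call without pirfenidone library 1 or control library 2, and Gpm6a without control library 1 or 2.

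Contractile genes gave few calls. Of 16 smooth muscle genes, 0 were higher and 1, Myh11, was lower, with a median of 0.07, against -0.40 with vehicle. Acta2 (smooth muscle actin, also a marker of myofibroblasts, chr19:34240336-34255585) had 65.01, 60.5 and 40.96 RPKM with pirfenidone, against 32.7, 26.3 and 29.1 RPKM with vehicle and 77.3, 93.1 and 65.6 RPKM in control. Pirfenidone-treated lungs lay between the groups, below control by a log2 fold change of -0.51 that did not pass (SE 0.19, adjusted p = 0.0922) and above vehicle by 0.87 that did not pass either (adjusted p = 0.0747). TGFα lungs on vehicle did pass against control (log2 fold change -1.38, adjusted p = 0.0028). Myh11, the smooth muscle myosin, averaged 16.1 ± 2.84 RPKM with pirfenidone, 10.8 ± 3.28 with vehicle and 28.95 ± 5.43 in control (adjusted p = 0.035, log2 fold change -0.81 ± 0.22 SE), and lost its call without pirfenidone library 2 or 3, vehicle library 3, or control library 1 or 2. Of 13 pericyte genes, Rgs5 and Kcnj8 were higher and 0 lower, and Kcnj8 lost its call without pirfenidone library 1 or 2, vehicle library 2 or 3 or any control library. Rgs5, a regulator of G-protein signals in pericytes, had 29.6, 18.6 and 7.67 RPKM with pirfenidone, against 28.6, 18.8 and 19.6 RPKM with vehicle and 2.76, 3.57 and 2.94 RPKM in control, with pirfenidone library 3 nearest to control (adjusted p = 0.00979, log2 fold change 2.09 ± 0.39 SE). Of 27 resident fibroblast genes, 5 were higher (Mfap5, Dcn, Cd34, Serpinf1 and Mgp) and 5 lower (Limch1, Gpc3, Dpt, Macf1 and Wisp2). Mgp (matrix Gla protein, an inhibitor of calcification) averaged 5777 ± 1224 RPKM with pirfenidone, 3989 ± 466 with vehicle and 1372 ± 130.3 in control (adjusted p = 0.00108, log2 fold change 2.06 ± 0.21 SE) and Mfap5 (a microfibril protein) averaged 74.5 ± 26.6 RPKM with pirfenidone, 44.6 ± 6.5 with vehicle and 18.1 ± 1.5 in control (adjusted p = 0.00166, log2 fold change 1.93 ± 0.23 SE). Dpt (dermatopontin, of adventitial fibroblasts) had 23.9, 25.99 and 42.2 RPKM with pirfenidone, against 10.7, 37.3 and 4.92 RPKM with vehicle and 108, 125 and 109 RPKM in control. The vehicle libraries were far apart, and the call (adjusted p = 0.0484, log2 fold change -1.90 ± 0.57 SE) was lost without any 1 of the 3 pirfenidone libraries, vehicle library 1 or any 1 of the 3 control libraries. The higher count of 5 was 8 without pirfenidone library 3, and Dcn lost its call without pirfenidone library 1 or 2 or control library 1. Lower calls numbered 2 without pirfenidone library 2 or control library 1, 3 without pirfenidone library 1 or control library 2 and 8 without control library 3. Calca (calcitonin gene-related peptide, of neurons and neuroendocrine cells) and S100b were among the 3 of 6 tested neural and glial genes that were higher. Calca had 12.4, 13.7 and 12.7 RPKM with pirfenidone, against 5.85, 9.82 and 8.27 RPKM with vehicle and 0.466, 2.03 and 0.819 RPKM in control. The pirfenidone libraries were nearly equal and above all others (11.7-fold, adjusted p = 0.000765, log2 fold change 2.79 ± 0.26 SE).

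Immune lists moved in different directions. Of 10 neutrophil genes, 5 were lower and 0 higher. Csf3r (the receptor for granulocyte colony stimulating factor) had 7.002, 7.96 and 4.14 RPKM with pirfenidone, against 5.74, 4.35 and 4.19 RPKM with vehicle and 14.6, 15.4 and 17.1 RPKM in control, with no overlap between TGFα and control (adjusted p = 0.00612, log2 fold change -1.22 ± 0.20 SE). S100a8, an abundant calcium-binding protein of neutrophils, averaged 62.7 ± 29.7 RPKM with pirfenidone, 60.6 ± 7.54 with vehicle and 163 ± 29.2 in control (adjusted p = 0.0175, log2 fold change -1.48 ± 0.33 SE), and lost its call without control library 2. Although the summed list was far higher in control library 3, the count of 5 also stood without that library, and it was 3 without pirfenidone library 1 or control library 2. Of 21 T cell genes, 5 were lower, among them Cd3e, Cd2, Cd27 and Zap70, and Thy1, which fibroblasts also carry, was higher, with a median of -0.50, against -0.98 with vehicle. The call of Thy1 was lost without pirfenidone library 1 or 2 or control library 1 or 2. Of 13 natural killer and cytotoxic genes, Klrd1, Gzma and Prf1 were lower and 0 higher, a count that was 0 without pirfenidone library 1 or 2, vehicle library 2 or 3 or control library 1 or 2 and 5 without control library 3. Of 10 platelet genes, Ppbp, Itgb3, Gp5 and Clec1b were lower and 0 higher, and the 4 were 1 or 2 without pirfenidone library 1 or 2, vehicle library 3 or any control library. Of 15 B cell genes, 5 were lower, with a median of -0.47, against -1.06 with vehicle. The T cell count of 5 was 1 without pirfenidone library 2 or control library 2 and 2 without pirfenidone library 3, vehicle library 3, control library 1 or control library 3, and 3 without vehicle library 2. The B cell count of 5 was 1 without pirfenidone library 1, pirfenidone library 3 or control library 2, 2 without pirfenidone library 2, control library 1 or control library 3, and 3 without vehicle library 3.

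Macrophage and complement genes were called on the strength of few libraries. Of 23 monocyte and interstitial macrophage genes, Cx3cr1, C1qa, C1qb, C1qc, Ms4a7 and Fcgr1 were higher and 0 lower. C1qa (a chain of the first complement component, made by macrophages) had 289, 315 and 106 RPKM with pirfenidone, against 124, 89.2 and 107 RPKM with vehicle and 38.3, 43.4 and 105 RPKM in control. The excess lay in pirfenidone libraries 1 and 2, library 3 was level with vehicle, and control library 3 was also level with vehicle (adjusted p = 0.0262, log2 fold change 1.91 ± 0.47 SE). All 6 calls were gone without pirfenidone library 1, pirfenidone library 2, control library 1 or control library 2, and without pirfenidone library 3 or control library 3 the count was 12 and 11. Of 20 complement genes, 7 were higher and 2 lower. The 7 were 0 without pirfenidone library 1 or 2 or control library 1 or 2 and 11 without pirfenidone library 3. The 2 were 0 without control library 1 or 2, 1 without any pirfenidone library, vehicle library 2 or 3 or control library 3, and 3 without vehicle library 1. Cxcl13, a chemokine that draws B cells, had 188, 193 and 36.7 RPKM with pirfenidone, against 47.9, 21.5 and 24.1 RPKM with vehicle and 7.17, 8.29 and 40.4 RPKM in control, with pirfenidone libraries 1 and 2 far above all others (adjusted p = 0.0332, log2 fold change 2.93 ± 0.78 SE), and lost its call without pirfenidone library 1 or 2, vehicle library 3, or control library 1 or 2. Of 34 cytokine and chemokine genes, 5 were higher (Ccl11, Ccl12, Cxcl13, Nos2 and Arg1) and Cxcl15 was lower, beside 10.6% and 7.74% of all genes. The 5 were 1 without pirfenidone library 1 or 2 or control library 1 or 2, 3 without vehicle library 3 and 9 without control library 3. Lower calls numbered 2 without vehicle library 1 and 3 without control library 1 or 3. Of 33 interferon-induced genes, 0 were higher and Ifit1, Ifi35, Ddx58 and Rsad2 were lower, beside 7.74% of all genes lower. That count of 4 was 0 without pirfenidone library 1 or control library 1, 1 without control library 2, 2 without pirfenidone library 2 or 3, vehicle library 3 or control library 3, and 7 without vehicle library 1. Of 6 red cell genes tested, 5 were lower, or 3 without pirfenidone library 2. Slc4a1, the anion exchanger of red cells, had 0.596, 0.399 and 0.327 RPKM with pirfenidone, against 0.33, 0.256 and 0.245 RPKM with vehicle and 3.19, 1.72 and 3.62 RPKM in control (adjusted p = 0.00334, log2 fold change -1.38 ± 0.20 SE). Slc4a1 exceeded 1 RPKM in control libraries only and passed the filter through them, which favoured a lower call. Of 10 mast cell, basophil and eosinophil genes, Kit, Hdc and Gata2 were lower, the last not without pirfenidone library 2 or control library 1 or 2. Kit (the receptor for stem cell factor, in lung also on capillary cells) averaged 18.9 ± 4.33 RPKM with pirfenidone, 15.8 ± 1.19 with vehicle and 46.9 ± 7.43 in control (adjusted p = 0.00273, log2 fold change -1.28 ± 0.17 SE).

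The circadian clock is a loop in which the activators CLOCK, NPAS2 and ARNTL (BMAL1) drive the Per, Cry and Nr1d repressors, while NR1D proteins repress Arntl and DBP, TEF and HLF act on D-box sites. Of 19 clock genes tested, 7 were higher and 4 lower, with a median of 0.55, against 0.19 with vehicle. The higher genes were Dbp, Tef, Hlf, Nr1d2, Per2, Per3 and Rora, and the lower genes were Arntl, Npas2, Clock and Nfil3. The following RefSeq sequences (GRCm38.p6) show stretches near the listed starts of 4 of these genes, on the strand of the gene, with sites that clock proteins can bind in capitals. They are AGGTCA or its reverse complement in Arntl (chr7:113207461-113207560, + strand) and Nfil3 (chr13:52980998-52981097, - strand), CACGTG in Tef (chr15:81802500-81802599, + strand), and TTATGTAA in Per3 (chr4:151044793-151044892, - strand).
Arntl: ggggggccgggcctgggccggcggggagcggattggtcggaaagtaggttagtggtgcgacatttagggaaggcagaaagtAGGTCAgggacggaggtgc
Nfil3: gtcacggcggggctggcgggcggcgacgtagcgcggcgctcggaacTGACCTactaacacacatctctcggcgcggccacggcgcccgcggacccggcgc
Tef: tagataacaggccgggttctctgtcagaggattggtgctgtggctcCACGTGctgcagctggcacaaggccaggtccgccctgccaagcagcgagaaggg
Per3: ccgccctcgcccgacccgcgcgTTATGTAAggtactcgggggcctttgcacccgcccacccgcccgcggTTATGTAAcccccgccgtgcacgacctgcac

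Both strands of windows of 250 bases before to 50 after each start were searched. Listed genes were counted once each, and some, such as Tef, have more than 1 window. The share of all windows is counted by window, so it is not the same measure. AGGTCA, the core bound by ROR and REV-ERB proteins, was in the windows of 3 of 4 lower genes (Arntl, Clock and Nfil3) and of 1 of the 6 higher genes with a window (Nr1d2), and in 16.3% of all 32851 windows. The E-box CACGTG was in 1 of 6 higher genes (Tef), 0 of 4 lower genes and 7.15% of all windows. The D-box TTATGTAA was in 1 of 6 higher genes (Per3, with 2 copies), 0 of 4 lower genes and 0.938% of all windows. No 2 of the sites printed in capitals overlap, and a match is a description of these letters, not evidence of binding.

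Dbp (a PAR bZIP activator, chr7:45705100-45710203) had 55.3, 50.04 and 33.5 RPKM with pirfenidone, against 27.6, 21.1 and 16.7 RPKM with vehicle and 3.61, 4.12 and 3.2 RPKM in control. The groups did not overlap and pirfenidone was the highest (12.7-fold against control, adjusted p = 0.000372, log2 fold change 3.32 ± 0.22 SE). Per3 (a period repressor) had 24.3, 18.2 and 22.1 RPKM with pirfenidone, against 12.9, 12.9 and 10.6 RPKM with vehicle and 4.35, 4.84 and 3.07 RPKM in control, in the same order (5.27-fold, adjusted p = 0.000466, log2 fold change 2.15 ± 0.16 SE). Arntl had 3.34, 4.08 and 5.55 RPKM with pirfenidone, against 7.1, 8.63 and 10.6 RPKM with vehicle and 14.2, 14.8 and 12.6 RPKM in control, in the reverse order, with control highest (adjusted p = 0.00159, log2 fold change -1.50 ± 0.17 SE). Npas2 averaged 0.831 ± 0.174 RPKM with pirfenidone, 1.73 ± 0.146 with vehicle and 3.63 ± 0.357 in control (adjusted p = 0.000565, log2 fold change -1.34 ± 0.11 SE), Hlf averaged 14.4 ± 3.74 RPKM with pirfenidone, 6.39 ± 1.97 with vehicle and 1.89 ± 0.217 in control (adjusted p = 0.000749, log2 fold change 2.38 ± 0.22 SE) and Nr1d2 averaged 51 ± 5.995 RPKM with pirfenidone, 42.3 ± 4.34 with vehicle and 16.5 ± 0.871 in control (adjusted p = 0.000387, log2 fold change 1.57 ± 0.11 SE). Against vehicle, none of these 6 genes passed, with adjusted p of 0.07 for Dbp, 0.0692 for Per3 and 0.0664 for Arntl. Clock averaged 7.64 ± 0.805 RPKM with pirfenidone, 11.8 ± 0.328 with vehicle and 10.3 ± 1.2 in control (adjusted p = 0.0362, log2 fold change -0.38 ± 0.10 SE), and did not pass against vehicle (adjusted p = 0.055). Clock lost its call without pirfenidone library 1 or 2, vehicle library 2 or 3, or control library 1 or 2, Nfil3 without pirfenidone library 1 or control library 2, Per2 without pirfenidone library 1, and Rora without pirfenidone library 1 or 2 or control library 1. Per1, a period gene that stress and feeding also induce, varied most among control lungs and did not pass, with 35.6, 25.5 and 24.3 RPKM with pirfenidone, against 17.99, 27.4 and 16.95 RPKM with vehicle and 27.3, 42.6 and 9.13 RPKM in control. The higher count of 7 was 5 to 9 without any library in turn, and 4 with pirfenidone library 3 alone.

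**Figure D4:**
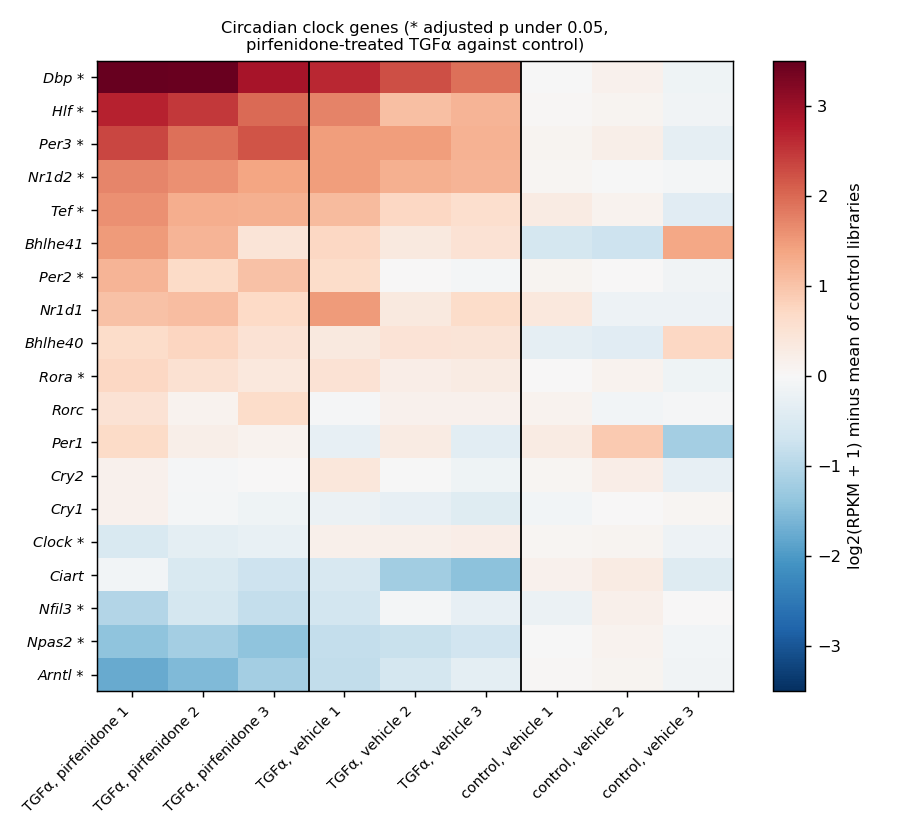
Level of 19 clock genes in each library as log2(RPKM + 1) minus the mean of control, with the 3 pirfenidone columns first, then vehicle, then control, and an asterisk at genes past the threshold between pirfenidone-treated and control lungs. Dbp, Per3, Hlf and Nr1d2 are above control in all 3 pirfenidone libraries, and Arntl and Npas2 are below.

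Immediate early genes, which signals induce within minutes, had more lower than higher calls. Of 22 tested, Fosb, Fosl2, Atf3, Nr4a3, Klf4 and Klf6 were lower and Egr1 and Egr3 were higher, a number near the share of higher calls over all genes (10.6%), and 17 log2 fold changes were negative, with a median of -0.44, against -0.56 with vehicle. Egr1 (a zinc finger factor downstream of ERK) had 52.4, 57.5 and 63.5 RPKM with pirfenidone, against 30.5, 52.7 and 58.4 RPKM with vehicle and 20.6, 22.7 and 21.7 RPKM in control (2.67-fold, adjusted p = 0.00447, log2 fold change 1.37 ± 0.21 SE). Nr4a3 (an orphan nuclear receptor) had 0.773, 1.64 and 1.4 RPKM with pirfenidone, against 0.864, 1.91 and 1.11 RPKM with vehicle and 4.91, 7.09 and 3.62 RPKM in control, with no overlap between TGFα and control (adjusted p = 0.00768, log2 fold change -1.43 ± 0.25 SE). The lower count of 6 was 1 without pirfenidone library 1 or control library 2, 2 without pirfenidone library 2 and 3 without control library 1.

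Some chaperones were lower as well. Of 31 genes of heat shock, cold shock and the endoplasmic reticulum, 9 were lower (Hspa5, Hyou1, Hspa1a, Hspa1b, Hspa8, Hsph1, Hsp90aa1, Dnajb1 and Dnaja1) and 2 higher, the cold-induced RNA-binding proteins Rbm3 and Cirbp, with a median of -0.26, against -0.06 with vehicle. Heat shock factor 1 binds repeats of nGAAn, and GAANNTTC, the core of a pair of them, is in capitals in these RefSeq stretches (GRCm38.p6) of Hsph1 (chr5:149636287-149636386, - strand), Hspa1a (chr17:34972207-34972306, - strand) and Dnaja1 (chr4:40722298-40722397, + strand).
Hsph1: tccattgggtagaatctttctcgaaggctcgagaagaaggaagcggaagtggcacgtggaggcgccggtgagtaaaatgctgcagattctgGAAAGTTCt
Hspa1a: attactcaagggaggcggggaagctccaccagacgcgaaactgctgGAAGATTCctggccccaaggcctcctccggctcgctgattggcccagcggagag
Dnaja1: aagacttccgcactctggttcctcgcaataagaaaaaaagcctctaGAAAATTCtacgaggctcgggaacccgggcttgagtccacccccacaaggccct

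On both strands of the same windows, the core was in 4 of the 6 lower genes that have a window (with Hspa1b), in 0 of 1 higher gene and in 7.86% of all windows. Genes and windows are again unlike units. The matched stretches of Hspa1a and Hspa1b are identical, so they are not separate matches. Hsph1 (a co-chaperone of HSP70) had 9.43, 12.3 and 19.7 RPKM with pirfenidone, against 15.8, 25.2 and 19.1 RPKM with vehicle and 33.1, 51.3 and 36.3 RPKM in control. All control libraries were above all TGFα libraries, and pirfenidone libraries 1 and 2 were the lowest (adjusted p = 0.0083, log2 fold change -1.51 ± 0.27 SE). Hsp90aa1, the inducible HSP90, averaged 135 ± 21 RPKM with pirfenidone, 167 ± 31.1 with vehicle and 259 ± 31.3 in control (adjusted p = 0.00773, log2 fold change -0.94 ± 0.17 SE). Hspa1a, an inducible HSP70, had 1.13, 0.892 and 1.32 RPKM with pirfenidone, against 1.07, 1.12 and 0.511 RPKM with vehicle and 3.46, 14.2 and 3.27 RPKM in control, with control library 2 far above the other controls. Hspa1a and Hspa1b are near-identical copies whose reads the authors' counting may have split, so neither value is certain, and Hspa1a lost its call without pirfenidone library 1 or 2. Rbm3 averaged 61.6 ± 1.92 RPKM with pirfenidone, 64.6 ± 8.51 with vehicle and 38.8 ± 4.28 in control (adjusted p = 0.00692, log2 fold change 0.66 ± 0.11 SE), and kept its call without any library in turn, while Cirbp lost its call without pirfenidone library 1 or 2, vehicle library 2 or 3 or any control library. The lower count of 9 was 3 without pirfenidone library 1 and 2 without pirfenidone library 2.

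Most ribosomal protein genes rose by a small amount. Of 73 tested, 52 were higher and 0 lower, with a median of 0.53, against 0.78 with vehicle. Rps23 had 380.3, 413 and 399.9 RPKM with pirfenidone, against 338, 420.1 and 388 RPKM with vehicle and 249, 283 and 271 RPKM in control, with all TGFα libraries above all control libraries (1.49-fold, adjusted p = 0.00908, log2 fold change 0.57 ± 0.10 SE). The count was unstable, at 15, 11 and 21 without pirfenidone libraries 1, 2 and 3, 29 without vehicle library 3, and 4 and 6 without control libraries 1 and 2, and it was 34 after quantile normalization. Short genes as a whole leaned the same way. Of 4 classes of about equal size by gene length, the shortest (median length 1253 bases) had a median log2 fold change of 0.14, and the longest (5952 bases) one of -0.02. The part of this in the ribosomal result was not tested. Of 49 respiratory chain genes 9 were higher and 0 lower, a count that was 0 without control library 1, 1 without pirfenidone library 2 or control library 2, 3 without vehicle library 3 and 4 without vehicle library 2. Of 40 cell cycle genes, Cdk2, Rrm1 and Cdkn2a were higher and 0 lower, with a median of 0.06, against 0.41 with vehicle. That is no more than the share of higher calls over all genes (10.6%). Cdkn2a (the locus of p16 and ARF, which arrest the cycle) had 30.9, 25.04 and 12.1 RPKM with pirfenidone, against 11.8, 18.01 and 18.5 RPKM with vehicle and 5.6, 3.81 and 3.38 RPKM in control (5.32-fold, adjusted p = 0.0049, log2 fold change 2.10 ± 0.33 SE). Its highest libraries were pirfenidone 1 and 2, and pirfenidone library 3 was within the vehicle range. Cdk2 and Rrm1 lost their calls without any 1 of the 3 pirfenidone libraries, vehicle library 2 or 3, or control library 1 or 2.

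Of 26 fatty acid and sterol synthesis genes, 8 were lower, 6 of them in the sterol pathway or its control (Hmgcs1, Idi1, Fdps and Insig1 among them), and Fads2 and Me1 were higher. Idi1 (isopentenyl diphosphate isomerase) had 17.3, 21.1 and 23.3 RPKM with pirfenidone, against 33.8, 24.9 and 28.5 RPKM with vehicle and 31.8, 34.8 and 37.7 RPKM in control, lowest under pirfenidone (adjusted p = 0.00956, log2 fold change -0.73 ± 0.14 SE). The count of 8 was 1 without pirfenidone library 1 or control library 2 and 2 without pirfenidone library 2 or control library 1. The higher count of 2 was 1 without pirfenidone library 2 or control library 2, where Fads2 lost its call, and 4 without vehicle library 1. Of 29 cytochrome P450, FMO and conjugating enzymes, Cyp2f2, Cyp2s1, Cyp4b1 and Fmo1 were lower and Cyp1b1 was higher, and the 4 were 2 without pirfenidone library 1 or 2, vehicle library 3 or control library 1 or 2, 8 without vehicle library 1 and 9 without control library 3. The higher count of 1 was 2 without pirfenidone library 3 or vehicle library 1. Fmo1, a flavin monooxygenase, had 69.7, 71.8 and 74.6 RPKM with pirfenidone, against 62.96, 36.6 and 38.3 RPKM with vehicle and 232, 255 and 135 RPKM in control, with the pirfenidone libraries nearly equal and above vehicle library 1, the highest of its group (adjusted p = 0.00825, log2 fold change -1.46 ± 0.26 SE). Cyp1b1, a P450 of mesenchyme, had 30.9, 29.6 and 9.76 RPKM with pirfenidone, against 15.2, 7.13 and 9.57 RPKM with vehicle and 2.95, 2.36 and 4.97 RPKM in control (6.84-fold, adjusted p = 0.00956, log2 fold change 2.35 ± 0.44 SE), with pirfenidone library 3 level with vehicle. Of 23 NRF2 antioxidant genes, Gclc, Sod3 and Gpx2 were lower and 0 higher, beside 7.74% of all genes lower. The 3 were 1 without pirfenidone library 1 or control library 1 or 2. Gclc, the rate-limiting enzyme of glutathione synthesis, had 34.4, 32.4 and 49.1 RPKM with pirfenidone, against 64.5, 53.2 and 62.5 RPKM with vehicle and 68.5, 69.98 and 105 RPKM in control, lowest in pirfenidone libraries 1 and 2 (adjusted p = 0.0103, log2 fold change -1.05 ± 0.20 SE).

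Some genes passed both against control and against vehicle in the same direction, so that pirfenidone-treated lungs stood outside the other groups. The pair of comparisons share the pirfenidone libraries. The 6 largest increases of this kind were Angptl7, Clec11a, Trabd2b, Cmtm3, Cpe and Plekha4, and the 6 largest decreases were Uhmk1, Ahcyl2, Lrrc8b, Hspa4l, Xiap and Osbpl8. Trabd2b (also called Tiki2, a membrane protease that inactivates WNT ligands) had 9.39, 9.28 and 9.29 RPKM with pirfenidone, against 4.5, 4.85 and 5.67 RPKM with vehicle and 3.48, 3.67 and 2.56 RPKM in control. Its pirfenidone libraries were nearly equal and above all others (log2 fold change 1.29 against control, adjusted p = 0.000792, and 0.79 against vehicle, adjusted p = 0.0371). Clec11a (a secreted growth factor of bone) had 43.5, 37.4 and 29.3 RPKM with pirfenidone, against 16.7, 19.5 and 21.9 RPKM with vehicle and 16.1, 19.6 and 18.03 RPKM in control, with vehicle and control libraries in overlapping ranges (0.98 on the log2 scale against control, adjusted p = 0.00492, and 0.88 against vehicle, adjusted p = 0.0477). Uhmk1 (a kinase with an RNA-binding motif) had 5.36, 5.46 and 6.65 RPKM with pirfenidone, against 12.1, 12.8 and 11.96 RPKM with vehicle and 10.3, 9.45 and 9.43 RPKM in control. Pirfenidone was lowest and vehicle highest, with no overlap (-0.66 against control, adjusted p = 0.00322, and -0.97 against vehicle, adjusted p = 0.00539). Hspa4l, an HSP110-family chaperone like Hsph1, averaged 9.81 ± 0.714 RPKM with pirfenidone, 14.9 ± 1.68 with vehicle and 17.99 ± 0.826 in control. Cpe, a carboxypeptidase that processes peptide hormones, averaged 39.7 ± 5.87 RPKM with pirfenidone, 23.8 ± 2.36 with vehicle and 23.2 ± 1.96 in control. Against control, the calls of Cmtm3 and Ahcyl2 were lost without pirfenidone library 1 or 2, vehicle library 3 or control library 1 or 2, those of Xiap without pirfenidone library 1 or 2 or control library 1 or 2, and that of Osbpl8 without control library 2.

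**Figure D5:**
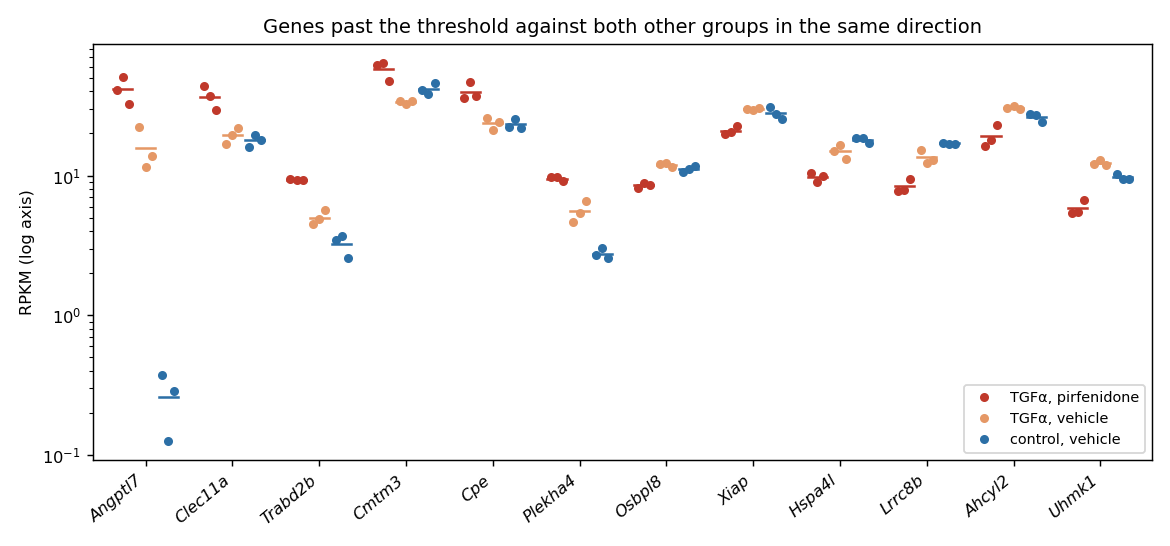
RPKM (log axis) of 12 genes past the threshold against control and against vehicle in the same direction, for TGFα pirfenidone, TGFα vehicle and control in that order. Points are libraries and bars are means of 3. For the 6 genes on the left the pirfenidone libraries lie above, and for the 6 on the right below, the libraries of both other groups.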

How the data were processed

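Total lung RNA was sequenced in 9 libraries, 3 in each of 3 groups taken from the sample labels. Per the labels' protocols, RNA was extracted on columns and made into standard Illumina libraries. Per the submitters' processing notes, the tools were TopHat, DESeq, CASAVA 1.8 and bcl2fastq, without the role of any, and the build was mm10. How genes were annotated and counted, and whether by strand, is not given in the sources used here. Values deposited by the authors are RPKM for 16165 genes. The header names no unit, which was settled from the values: within 0.01 reads, 100% of genes gave whole reads in every library once divided by a step, with steps in ratios of gene lengths. RefSeq (GRCm38) gave the positions of genes and, by identifier, the symbols of 29.

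Genes above 1 RPKM in at least 3 of the 9 libraries (13849) were put through the trend version of limma (3.58.1, R 4.3.3) on the scale log2(RPKM + 1). All 9 libraries entered with no term but group, and tests were two-sided, adjusted by Benjamini-Hochberg over all genes tested, with a threshold of 0.05. The model left 6 residual degrees of freedom with a prior of 2.67. Log2 fold changes and their standard errors are those of the model and understate changes of low genes. Folds are ratios of mean RPKM, means are given with the SD of 3 libraries, and intervals are 95% intervals. The labels do not say that each library came from its own mouse, so p measures the spread between these libraries, which may be technical.

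Wt1, Acta2, Fn1, Col3a1, Col1a1 and Tgfa are named whatever their values. The text also takes the 12 largest log2 fold changes each way among genes past the threshold with a mean of at least 2 RPKM and no overlap between the 2 groups. It adds the 3 members of each list with the smallest p, and the 6 largest differences each way from vehicle among genes past the threshold in both comparisons with the same sign. Genes with predicted or clone names were passed over, some genes of the rule are not reported here, and other members of a counted list may stand with it. The comparison, the lists and the rule were chosen with earlier results of these data known. Alternatives were other pseudocounts, filters and scalings, a fit to the 6 libraries alone, a replicate block, voom on recovered reads and leaving out each library. Keeping pirfenidone library 3 alone in its group was chosen after seeing the data. The fitting was tested on simulated data. Tables and figures were made with pandas 2.3.3, matplotlib 3.10.9 and numpy 2.4.6 in Python 3.11.15.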

Additional observations from a re-analysis of the deposited data

How the results depend on the processing

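The count of 2545 genes (1473 higher, 1072 lower) was 2521 with a pseudocount of 0.1 RPKM, 2570 with 5 RPKM, 2647 with no filter, 2055 above 5 RPKM, 2404 with voom on recovered reads and 1980 in a fit to the 6 libraries alone. Leaving out each library in turn gave 1121 to 3069 genes, 673 to 1725 higher and 410 to 1344 lower. With pirfenidone library 3 alone in its group, 156 genes passed, 125 higher and 31 lower. Of 397 called list members and named genes, 171 kept their call without each library in turn, and 0 changed sign in any setting. Of 152 named genes past the threshold, 37 kept the call in every setting, and 112 lost it with pirfenidone library 3 alone. Same-numbered libraries of the compared groups did not deviate together (correlations of 0.027, 0.035 and -0.024). That check left out the vehicle group and cannot show whether same-numbered libraries shared a batch. A fit with the replicate block gave 2483 genes. Median-of-ratios scaling gave 1160 higher and 1348 lower genes and quantile normalization 1156 and 1401. Depth limits the genes near 0 in control lungs, whose folds carry the counting error of a few reads. The setting behind each change is named, and why a call was lost was not tested.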
